A study of Mus musculus with 6 samples.

Results

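T-cell receptor genes are assembled from separate gene segments, and the rows of the count table that carry those segments were examined in cultured group 3 innate lymphoid cells (ILC3s), lymphocytes of the gut that have no antigen receptor on their surface. The members were the rows whose symbol names a V, D or J segment of the alpha, beta, delta or gamma locus or one of the constant regions Trac, Trbc, Trdc or Tcrg. That rule took 244 of the 33157 rows, which held 181 Tra, 43 Trb, 10 Trd and 10 Trg rows. Among constant regions it took Trbc2 alone. Trac, Trbc1 and Trdc are not analysed here, and the gamma constant regions stand in the table as Trgc1 to Trgc4, the current symbols of Tcrg-C1 to Tcrg-C4. Those 4 rows are given beside the members and are not counted among them.

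The cells were ILC3s of wild-type mouse small intestine, sorted as CD45+, lineage-negative, CD127+, KLRG1- and CD90.2 high with dim CD45, and were cultured for 4 h in complete RPMI. In the first group, recombinant mouse interferon-γ (IFN-γ) at 20 ng/mL was given together with insulin-like growth factor 1 (IGF-1) at 200 ng/mL. The control group had IFN-γ at 20 ng/mL without IGF-1, so every culture was exposed to IFN-γ. Each group held 3 libraries. The age of the mice is not given, and the labels do not tell whether the 3 libraries were separate animals or technical splits, so p-values speak for library-to-library spread only.

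A functional receptor chain is made when the RAG recombinase joins a V segment, in some loci a D segment, and a J segment upstream of a constant region. Before that joining, unrearranged loci can be transcribed from promoters near the D, J or V segments, and such germline transcripts mark open chromatin. Beta and alpha chains pair in conventional T cells, gamma and delta chains in γδ T cells, and both kinds of receptor need the CD3 chains to reach the surface. Counts per row cannot tell germline from rearranged transcripts.

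Total counts ranged from 36171528 to 39206449 in the IGF-1 libraries and from 32573713 to 38076876 in the control libraries. The members took 0.0828% to 0.0938% of all counts in the IGF-1 libraries and 0.0839% to 0.103% in the control libraries. Markers of ILC3s (13 genes, among them Kit and Il23r) summed to between 9832 and 10034 CPM with IGF-1 and to between 8237 and 9173 CPM in controls. Cxcr6 and Id2 carried that difference: 9 of the 13 markers had a negative log2 fold change, and without these genes, an alternative added after seeing the data, the sum was 3295 to 3413 CPM with IGF-1 and 3571 to 3714 CPM in controls. CPM is a row's count for every 1000000 counts of its library, after scaling the library total with edgeR's TMM factor. Control replicate 3 stood apart in plasma cell transcripts. It held 46944 counts of the IgA heavy chain Igha and 18629 of the joining chain Jchain, while Igha had 133 to 191 counts in the IGF-1 libraries and 40 and 192 in the other controls. The kappa constant row Igkc had 4 counts in control replicate 3, although the kappa V rows held 31241, so a row near 0 was not read as absence of its RNA.

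The J segments are shown first, because, after the constant region, they held most counts of the beta locus. The 14 beta J segments follow 5′ to 3′ as in GENCODE M21 (GRCm38, chromosome 6, plus strand), with capitals marking the bases that encode the FGXG motif of J segments, which a script found in 11 of these 14 and in 70.0% of all 80 J rows.
Trbj1-1: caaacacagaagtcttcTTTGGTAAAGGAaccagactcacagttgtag
Trbj1-2: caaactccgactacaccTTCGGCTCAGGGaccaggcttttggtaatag
Trbj1-3: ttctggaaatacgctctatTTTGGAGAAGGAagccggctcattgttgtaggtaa
Trbj1-4: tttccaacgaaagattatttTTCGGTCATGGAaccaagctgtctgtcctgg
Trbj1-5: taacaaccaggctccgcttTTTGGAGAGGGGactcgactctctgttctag
Trbj1-6: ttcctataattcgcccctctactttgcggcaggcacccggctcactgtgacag
Trbj1-7: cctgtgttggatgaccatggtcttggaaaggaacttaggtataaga
Trbj2-1: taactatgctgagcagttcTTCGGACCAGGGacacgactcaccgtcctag
Trbj2-2: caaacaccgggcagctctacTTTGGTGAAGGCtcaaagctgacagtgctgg
Trbj2-3: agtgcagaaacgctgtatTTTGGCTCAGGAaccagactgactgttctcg
Trbj2-4: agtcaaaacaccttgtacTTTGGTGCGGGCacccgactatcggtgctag
Trbj2-5: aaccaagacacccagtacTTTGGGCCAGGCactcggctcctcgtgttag
Trbj2-6: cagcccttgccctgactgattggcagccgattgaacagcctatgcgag
Trbj2-7: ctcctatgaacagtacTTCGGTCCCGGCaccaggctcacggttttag

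The gamma J segments (GENCODE M21, GRCm38, chromosome 13) are shown because Trgj1, Trgj2 and Trgj3 are near copies, which bears on how reads could be shared among them. Trgj1 differed from Trgj2 at 4 and from Trgj3 at 6 of 60 bases. Trgj4 has 61 bases and was not aligned to the others, so its likeness to them was not measured. The FGXG motif was found in 0 of the 4, so no base is in capitals.
Trgj1: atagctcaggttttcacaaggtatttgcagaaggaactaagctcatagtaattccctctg
Trgj2: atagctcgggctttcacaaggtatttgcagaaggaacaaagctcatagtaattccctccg
Trgj3: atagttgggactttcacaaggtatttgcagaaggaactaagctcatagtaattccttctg
Trgj4: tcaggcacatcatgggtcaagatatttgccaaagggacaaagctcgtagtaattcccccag

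The first 300 coding bases of Trdv4 (GENCODE M21, GRCm38, chromosome 14) are shown as those of the single member that passed the test between the groups, and those of Trgv5 (chromosome 13) as the gamma V row with most counts. The whole coding parts are 345 bases for Trdv4 and 341 bases for Trgv5. No stretch of 25 bases of either was found in another GENCODE transcript, whereas 49.9% of such stretches in Trbc2 also occur in other transcripts, most of them in Trbc1, so the split of reads between Trbc2 and Trbc1 is uncertain.
Trdv4: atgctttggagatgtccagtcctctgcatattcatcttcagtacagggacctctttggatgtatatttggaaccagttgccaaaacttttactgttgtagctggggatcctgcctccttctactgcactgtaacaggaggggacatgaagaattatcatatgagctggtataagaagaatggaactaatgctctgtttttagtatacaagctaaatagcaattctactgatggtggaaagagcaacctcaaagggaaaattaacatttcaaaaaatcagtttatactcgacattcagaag
Trgv5: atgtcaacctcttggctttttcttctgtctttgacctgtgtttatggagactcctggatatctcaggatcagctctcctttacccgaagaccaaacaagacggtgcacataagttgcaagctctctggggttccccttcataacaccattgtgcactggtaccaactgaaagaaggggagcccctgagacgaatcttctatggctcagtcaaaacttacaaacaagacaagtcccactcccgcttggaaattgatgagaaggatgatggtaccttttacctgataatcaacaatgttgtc

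Of the 244 members, 122 had a count in at least 1 library and 122 had none. A count was present on 58, 49 and 56 rows in IGF-1 replicates 1, 2 and 3, and on 56, 62 and 49 rows in control replicates 1, 2 and 3. The number of rows therefore overlapped between the groups. Only 21 rows had a count in all 6 libraries, and 55 had a count in 1 library alone, the highest of them being Traj17 with 10 counts in control replicate 2, Traj51 with 7 in IGF-1 replicate 2 and Traj54 with 7 in control replicate 2. A row with 0 counts in a library allows up to 3 counts at 95% confidence, or 0.0772 to 0.0897 CPM by library. This limit covers counting error only.

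Counts were concentrated in the beta locus. Its rows held 86.6% of the 202431 member counts, and Trbc2 alone held 71.9% to 79.0% of the member counts in IGF-1 libraries and 78.2% to 79.8% in control libraries. The 22 members that passed the filter on low counts comprised 11 Trb, 5 Trg, 3 Trd and 3 Tra rows, 19 of which had a count in every library. The other 100 members with a count shared 785 counts, and none of these rows exceeded 64 counts in a library.

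Between the groups, 1 of the 22 tested members passed the test, beside 0.497% of the 13483 genes tested. The test was edgeR's quasi-likelihood test with p adjusted over all those genes by Benjamini and Hochberg, and a row was called when its adjusted p was under 0.05. The called row, Trdv4, was higher with IGF-1, as were 0.230% of all genes, and 0 members were called lower, beside 0.267% of all genes. The same single member had an unadjusted p under 0.05, beside 11.8% of all genes, and the other 21 had adjusted p of 0.607 or above. Groups did not overlap in CPM for 2 of the 22, Trdv4 and Trgj1, beside 18.0% of all genes. The median log2 fold change of the 22 members was -0.12, and that of all genes tested was -0.01. All 11 tested Trb rows had a negative log2 fold change, beside 51.3% of all genes, but 4 of them (Trbd1, Trbj1-1, Trbj1-3 and Trbj2-1) turned positive in a fit without 1 library, and rows of one locus can share transcripts. In bulk samples such as these, fewer cells of a type and less RNA per cell cannot be told apart.

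**Figure D1:**
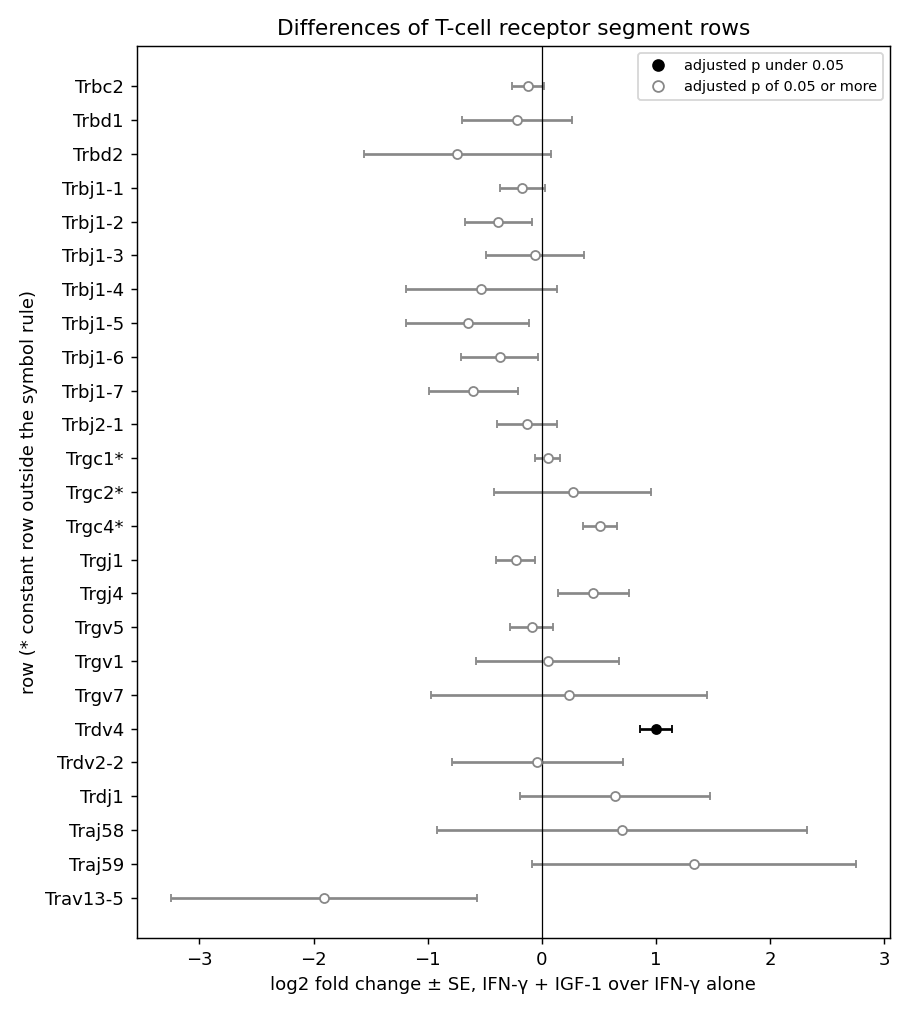
Log2 fold change with its SE of the 22 tested members and 3 gamma constant rows (asterisks), for IFN-γ with IGF-1 over IFN-γ alone; the filled point has an adjusted p under 0.05. Trdv4 at 1.00 is the filled point, and the low rows Traj58, Traj59 and Trav13-5 have SE from 1.34 to 1.62.

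**Figure D2:**
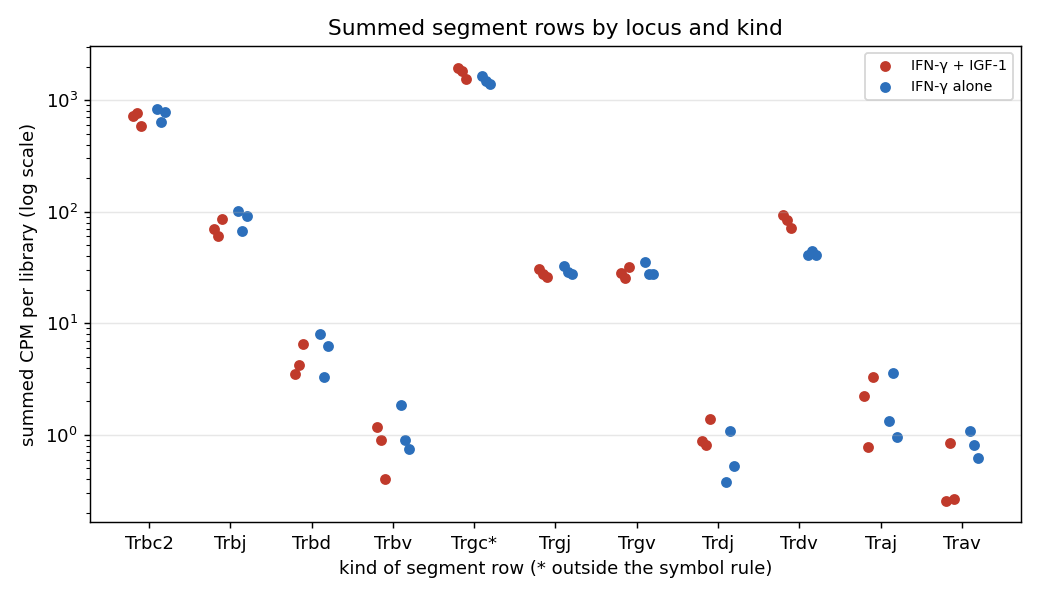
Summed TMM-normalised CPM of the segment rows of each locus and kind, on a log axis, with 1 point per library (red, IFN-γ with IGF-1; blue, IFN-γ alone). Trbc2 lies between 582 and 829 CPM while the 26 Trbv rows together lie between 0.401 and 1.85 CPM, and the Trdv sum is the member sum whose groups do not overlap.

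In the beta locus the constant region was abundant, the J rows were lower and the V rows were close to the floor. Trbc2, which encodes one of the beta constant regions, had 715, 771 and 582 CPM in the IGF-1 libraries, against 829, 638 and 783 CPM in the control libraries. The groups overlapped, and the difference was not called (log2 fold change -0.12, SE 0.14, adjusted p = 0.811). Per kilobase of the GENCODE M21 transcript its mean level was 996 CPM with IGF-1 and 1084 CPM in controls. The 14 beta J rows together had 70.5, 60.9 and 86.1 CPM in the IGF-1 libraries, against 102, 67.6 and 92.2 CPM in the control libraries. For each 100 Trbc2 counts there were 7.90 to 14.8 J counts with IGF-1 and 10.6 to 12.3 in controls.

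The beta J counts were spread unevenly over segments of similar length, 46 to 54 bases. Trbj1-1, the first J segment after Trbd1, was highest, with 31.6, 29.1 and 38.6 CPM in the IGF-1 libraries and 45.7, 28.3 and 37.7 CPM in the control libraries. It held 44.8% to 47.9% of the J counts with IGF-1 and 40.8% to 44.7% in controls. Next came Trbj1-2, with 11.4, 8.06 and 14.9 CPM with IGF-1 and 18.1, 10.6 and 16.2 CPM in controls, and then Trbj2-1, with 10.8 ± 1.44 CPM with IGF-1 and 11.7 ± 3.06 CPM in controls (SD, n = 3 each). The ranges of Trbj1-2 and Trbj2-1 overlapped in both groups, while Trbj1-1 lay above both rows in every library. Trbj1-6 averaged 5.80 ± 2.20 CPM with IGF-1 and 7.48 ± 0.515 CPM in controls, and Trbj1-7 averaged 4.57 ± 2.00 CPM with IGF-1 and 6.93 ± 1.83 CPM in controls. Trbj1-5 (2.80 ± 1.58 CPM with IGF-1, 4.40 ± 1.80 CPM in controls) and Trbj1-3 (2.88 ± 0.401 CPM with IGF-1, 3.01 ± 0.689 CPM in controls) followed. Ranges of neighbours among Trbj1-6, Trbj1-7, Trbj1-5 and Trbj1-3 overlapped in both groups. Trbj1-4 was lowest of the counted J rows (1.14 ± 0.437 CPM with IGF-1 and 1.64 ± 0.491 CPM in controls).

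All 7 Trbj1 rows had counts in every library, but of the 7 Trbj2 rows only Trbj2-1 did. The other 6, Trbj2-2 to Trbj2-7, were listed at 0 in all 6 libraries, although they lie between Trbj2-1 and Trbc2 in the RefSeq gene order of GRCm38. Of these, Trbj2-6 is annotated as a pseudogene. Whether the counting itself left these rows at 0 was not tested.

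The beta D segments, of 12 and 14 bases, also had counts in every library. Trbd1 had 3.24, 2.78 and 5.88 CPM in the IGF-1 libraries and 6.74, 2.27 and 4.88 CPM in the control libraries, and Trbd2 averaged 0.746 ± 0.584 CPM with IGF-1 and 1.24 ± 0.206 CPM in controls. In neither row did the groups separate.

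The beta V rows, which a rearranged chain would add to its transcript, held 218 counts in all, on 19 of 26 rows. Summed over the 26 rows they had 46, 31 and 15 counts in the IGF-1 libraries, against 69, 30 and 27 counts in the control libraries. For each 100 Trbc2 counts this was 0.0688 to 0.166 V counts with IGF-1 and 0.0961 to 0.224 in controls. The V rows with most counts were Trbv1 with 67 over all libraries, 44 of them in control replicate 1, Trbv16 with 30 and Trbv13-3 with 26. Trbv31, which lies beyond Trbc2 at the end of the locus, was at 0 throughout. In control replicate 3, whose plasma cell transcripts are described above, there were 6.10 Ighv counts for each 100 Igha counts. The same library had 0.0961 Trbv counts for each 100 Trbc2 counts, at unequal V and C lengths. The Ighv figure varied widely, at 117 to 171 in the IGF-1 libraries and 149 and 545 in the other controls, which all held far fewer Igha counts. In control replicate 3 the kappa V rows held 31241 counts beside 4 of Igkc. Such ratios of V to constant counts thus give no yardstick for the beta rows. Whether the beta transcripts lacked a V segment was not tested.

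**Figure D3:**
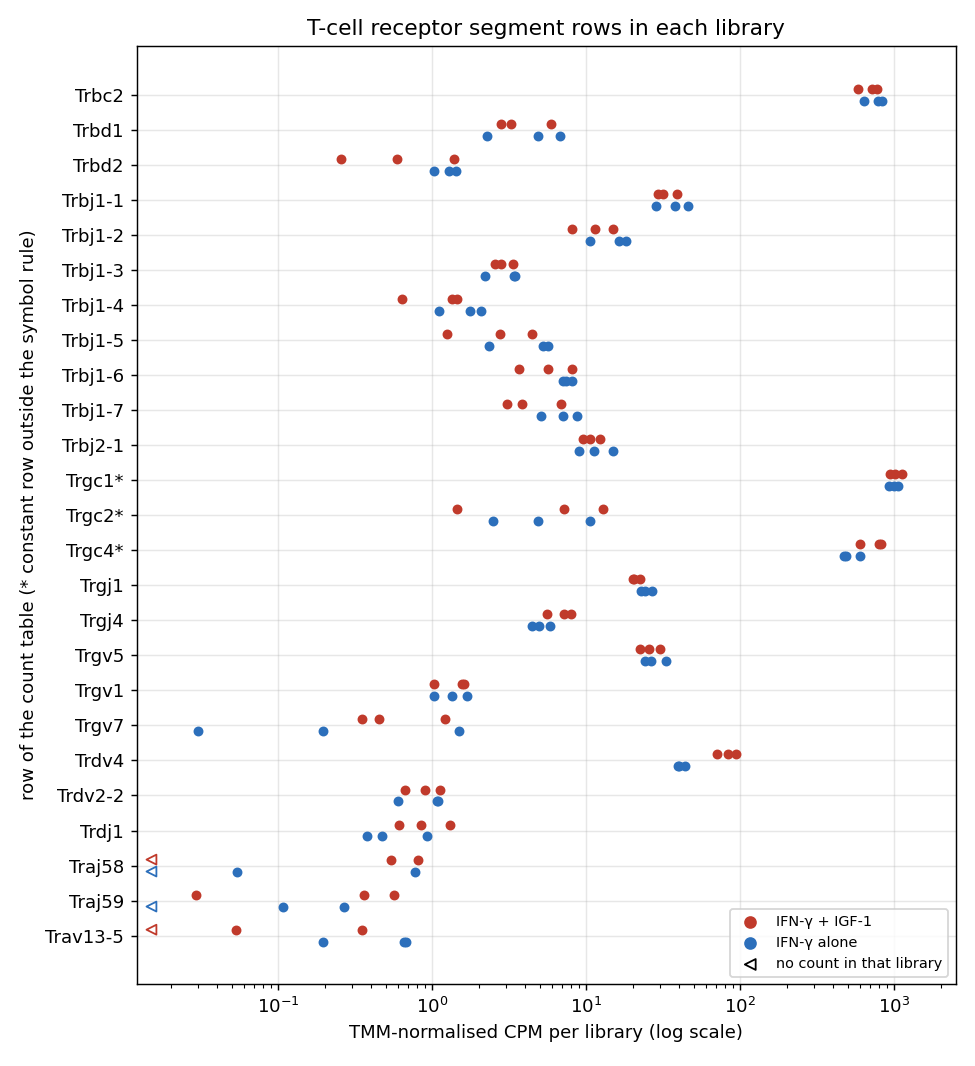
TMM-normalised CPM of the 22 members that passed the filter and of 3 gamma constant rows (asterisks), on a log axis, with 1 point per library (red, IFN-γ with IGF-1, drawn above blue, IFN-γ alone); open triangles at the left edge mark libraries with no count. The rows span from under 1 CPM for Trav13-5 to 582 to 829 CPM for Trbc2 among the members, and the red points of Trdv4 all lie to the right of its blue points.

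In the gamma locus, constant, J and V rows were all counted, and V counts fell mainly on Trgv5. Trgv5, the V segment next to Trgj1 in the RefSeq gene order, had 25.4, 22.4 and 30.2 CPM in the IGF-1 libraries, against 32.8, 24.2 and 26.3 CPM in the control libraries, with overlapping groups (log2 fold change -0.09, SE 0.19, adjusted p = 0.901). It made up 88.2% to 95.2% of gamma V counts with IGF-1 and 87.0% to 94.3% in controls. Trgv1 was far lower (1.39 ± 0.327 CPM with IGF-1 and 1.34 ± 0.327 CPM in controls, SD, n = 3 each), and 54.0% of its stretches of 25 bases are shared with other transcripts, most with Tcrg-V3. Trgv7, the V segment typical of intraepithelial γδ T cells of the mouse gut, had 47, 12 and 17 counts in the IGF-1 libraries and 55, 1 and 7 counts in the control libraries. Trgv2 had 64 counts in control replicate 2 and 37 in IGF-1 replicate 2, but at most 2 in each other library, and it was not tested. Trgv3 and Trgv4 were at 0 throughout.

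The gamma J and constant rows fell into pairs by cluster. Trgj1 precedes Trgc1 in the gene order, and Trgj4 precedes Trgc4. Trgj1 had 22.3, 20.0 and 20.4 CPM in the IGF-1 libraries, against 26.7, 24.0 and 22.7 CPM in the control libraries. These groups did not overlap, but the difference was not called (log2 fold change -0.23, SE 0.17, adjusted p = 0.661). Trgj4 had 7.90, 7.19 and 5.56 CPM in the IGF-1 libraries, against 5.77, 4.42 and 4.93 CPM in the control libraries, and its groups overlapped (log2 fold change 0.45, SE 0.31, adjusted p = 0.630). Trgj2 and Trgj3 had 35 and 2 counts over all 6 libraries.

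Of the gamma constant rows, outside the rule by their symbols, Trgc1 and Trgc4 were among the highest segment rows of the table, and Trgc2 and Trgc3 were low. Trgc1 had 1129, 1016 and 933 CPM in the IGF-1 libraries, against 1054, 999 and 918 CPM in the control libraries (log2 fold change 0.05, SE 0.11, adjusted p = 0.913). Trgc4 had 823, 793 and 598 CPM in the IGF-1 libraries, against 595, 488 and 473 CPM in the control libraries. Its groups did not overlap, and it was not called (log2 fold change 0.51, SE 0.15, adjusted p = 0.196), although DESeq2 did call it (adjusted p = 0.0277). The difference between the Trgc4 and Trgc1 log2 fold changes was not tested. Per kilobase, the mean was 1110 CPM with IGF-1 and 1072 CPM in controls for Trgc1, and for Trgc4 it was 749 CPM with IGF-1 and 527 CPM in controls. Trgc2 averaged 7.17 ± 5.72 CPM with IGF-1 and 5.94 ± 4.10 CPM in controls, and 58.4% of the stretches of 25 bases in Trgc1 are shared with other transcripts, most with Trgc2, so their split is uncertain. Trgc3 had 0, 21 and 9 counts in the IGF-1 libraries and 9, 13 and 0 in the control libraries. For each 100 Trgc counts there were 1.39 to 2.07 gamma V counts with IGF-1 and 1.85 to 2.14 in controls.

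**Figure D4:**
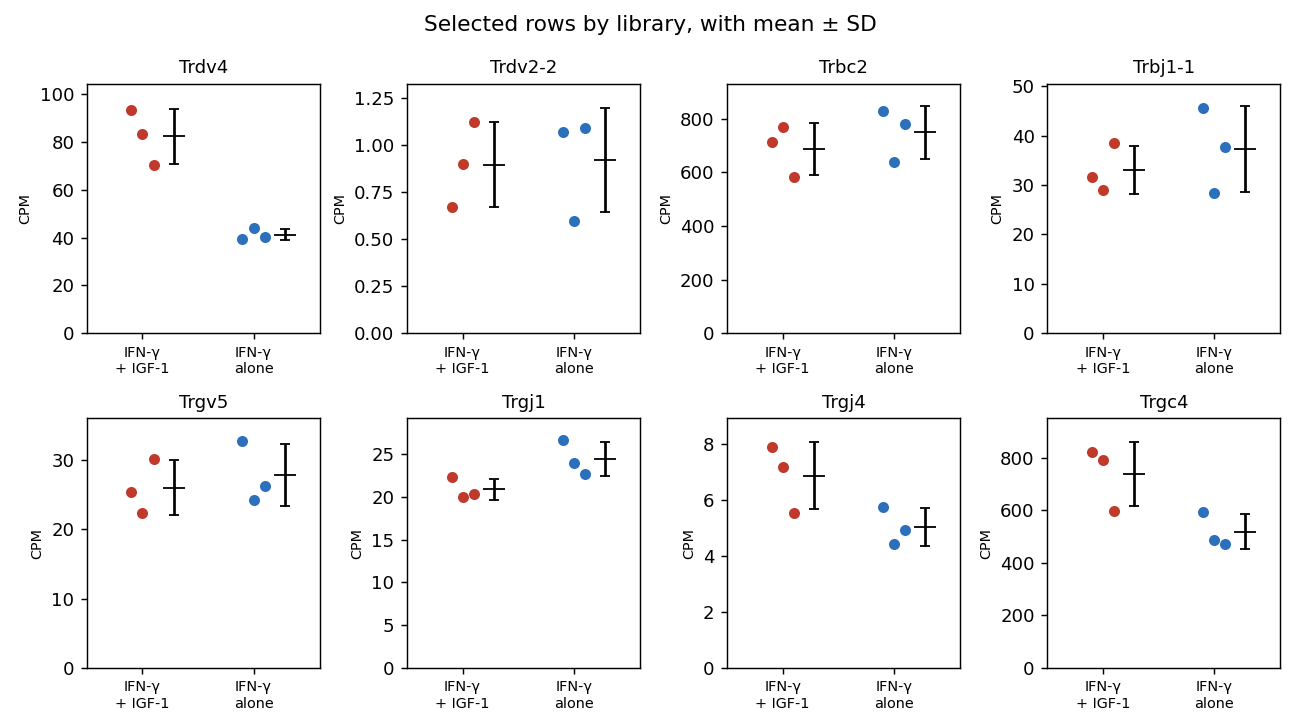
TMM-normalised CPM of 8 rows, with 1 point per library and, beside the points, the mean ± SD of the 3 libraries (red, left, IFN-γ with IGF-1; blue, right, IFN-γ alone); each axis starts at 0. The Trdv4 points lie at 70.4 to 93.5 CPM with IGF-1 and at 39.5 to 43.9 CPM in controls, while the Trbc2, Trbj1-1 and Trgv5 points of the groups overlap.

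In the delta locus a single V row, Trdv4, carried almost all counts and was higher with IGF-1. Trdv4 encodes a V segment used by mouse γδ T cells, and it is the V segment nearest to the delta D and J segments on their 5′ side. It had 93.5, 83.2 and 70.4 CPM in the IGF-1 libraries, against 39.5, 43.9 and 40.2 CPM in the control libraries. Every IGF-1 library was above every control library. The means were 82.3 ± 11.6 CPM with IGF-1 and 41.2 ± 2.35 CPM in controls (SD, n = 3 each), with a log2 fold change of 1.00 (SE 0.14, adjusted p = 0.0222 over all 13483 genes tested, edgeR's quasi-likelihood test). Per kilobase the mean level was 185 CPM with IGF-1 and 92.8 CPM in controls, and for Trgv5 it was 76.2 CPM with IGF-1 and 81.3 CPM in controls.

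The Trdv4 call depended on the libraries and on the model. With the replicate number as a block in the edgeR fit of all 6 libraries, the log2 fold change was 0.99 and the adjusted p 0.0775. DESeq2 with the same block also gave 0.99 but kept the call (adjusted p = 6.96e-06). Leaving out IGF-1 replicate 1 or 2 gave an adjusted p of 0.134 or 0.127, and leaving out control replicate 2 or 3 gave 0.0734 or 0.140. The call held without IGF-1 replicate 3 (0.0442) and without control replicate 1 (0.0488). The log2 fold change lay between 0.90 and 1.10 in the 6 fits without 1 library. The summed CPM of 4 lists also separated the groups: ILC3 markers as given above, regulators of receptor loci (5646 to 5930 CPM with IGF-1, 5114 to 5528 CPM in controls), NK cell and ILC1 markers (128 to 152 CPM with IGF-1, 81.1 to 107 CPM in controls, with Eomes and Klra8 at 0) and epithelial markers (20.7 to 28.7 CPM with IGF-1, 40.4 to 55.3 CPM in controls, with Krt19 and Alpi at 0). Without Cxcr6 and Id2 the ILC3 marker sums still did not overlap, but they were then lower with IGF-1. In alternatives added after seeing the data, the regulators overlapped without Id2 (3031 to 3384 CPM with IGF-1, 3219 to 3496 CPM in controls). The NK cell and ILC1 markers overlapped without Ncr1 (59.6 to 73.1 CPM with IGF-1, 53.3 to 77.5 CPM in controls), and the epithelial markers overlapped without Epcam (6.12 to 9.08 CPM with IGF-1, 8.67 to 9.69 CPM in controls). The part of these genes in the Trdv4 result was not tested. The lncRNA Gm30275 runs antisense across Trdv4 in GENCODE M21, with 0 exon bases overlapping those of Trdv4. The library kit does not mark strand, so reads from an unspliced antisense transcript cannot be told apart from those of Trdv4.

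**Figure D5:**
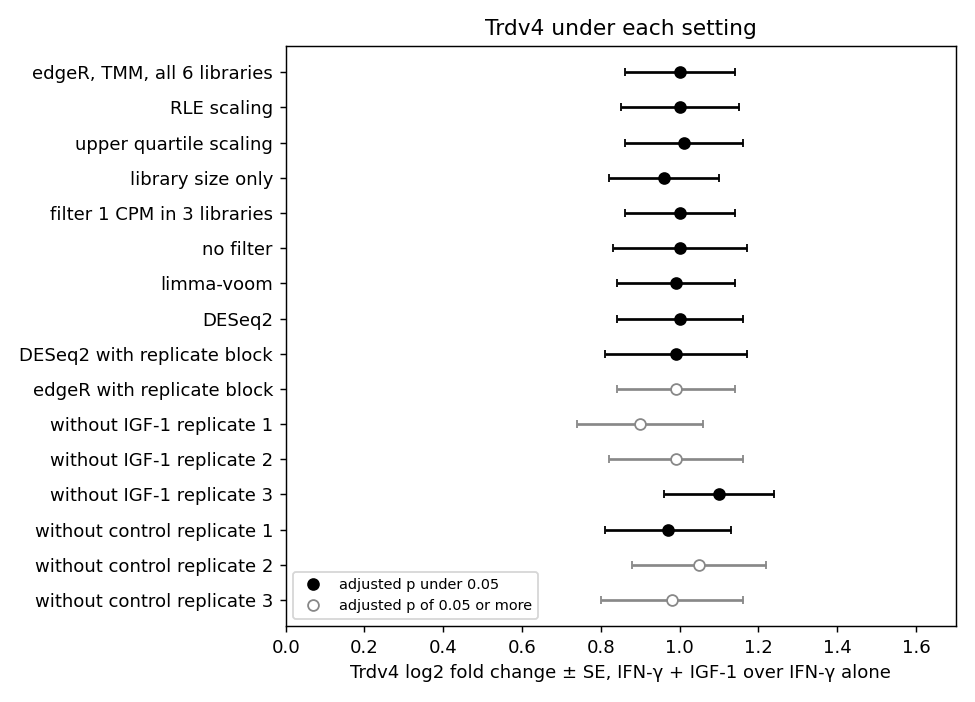
Log2 fold change of Trdv4 with its SE under each setting, for IFN-γ with IGF-1 over IFN-γ alone; filled points have an adjusted p under 0.05. All points lie between 0.90 and 1.10, and 10 of the 15 alternatives keep the call.

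The other delta rows were low. Trdv2-2 had 0.669, 0.899 and 1.12 CPM in the IGF-1 libraries, against 1.07, 0.598 and 1.09 CPM in the control libraries (log2 fold change -0.04, SE 0.75, adjusted p = 0.990). Trdj1, the J segment that follows Trdd2, had 33, 21 and 49 counts with IGF-1 and 14, 31 and 17 counts in controls, which overlapped (log2 fold change 0.64, SE 0.83, adjusted p = 0.836). Trdj2 had 18 counts in all and Trdd2 had 17, while Trdd1, Trdv2-1 and Trdv3 were at 0 throughout. Trdv5 had 6 counts, all in IGF-1 replicate 2, and Trdv1 had 1. Trdv4 thus made up 98.4% to 99.3% of delta V counts with IGF-1 and 97.4% to 98.7% in controls.

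The alpha locus had the most rows and the fewest counts. Its 181 rows held 579 counts, with 39 of 121 V rows and 38 of 60 J rows counted at least once, and 0 rows counted in all 6 libraries. The V rows together had 10, 29 and 10 counts in the IGF-1 libraries, against 40, 27 and 22 counts in the control libraries. Trav13-5 led them with 0, 12 and 2 counts with IGF-1 and 25, 22 and 7 in controls (log2 fold change -1.91, SE 1.34, adjusted p = 0.639), followed by Trav15-1-dv6-1 with 14 counts in all and Trav1 with 6. The log2 ratio of the summed V rows was -0.87, and it was -0.01 when Trav13-5 was left out.

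The alpha J rows together had 87, 27 and 124 counts in the IGF-1 libraries, against 50, 119 and 34 counts in the control libraries. The spread within each group was wider than the difference between them. Traj58 (79 counts in all), Traj59 (49) and Traj60 (40) held most counts. These and Traj61 are the J segments nearest to the delta locus in the RefSeq gene order, and the 4 rows, chosen after their values were seen, held 44.0% of the 441 alpha J counts. Traj58 had 21, 0 and 30 counts with IGF-1 and 2, 26 and 0 in controls (log2 fold change 0.70, SE 1.62, adjusted p = 0.918), and Traj59 had 14, 1 and 21 against 4, 9 and 0 in controls (log2 fold change 1.33, adjusted p = 0.790).

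The partners that a receptor chain needs were mostly low. Of the CD3 chains, which carry the receptor to the surface, Cd3e had 27, 27 and 25 counts in the IGF-1 libraries and 45, 18 and 27 in the control libraries. Cd3g averaged 13.3 ± 2.59 CPM with IGF-1 and 9.01 ± 4.08 CPM in controls (log2 fold change 0.56, SE 0.36, adjusted p = 0.598), and Cd3d averaged 4.88 ± 2.26 CPM with IGF-1 and 2.35 ± 0.934 CPM in controls (1.05, SE 0.52, adjusted p = 0.467). The signalling chain Cd247 averaged 1.47 ± 0.402 CPM with IGF-1 and 3.06 ± 0.673 CPM in controls (-1.06, SE 0.52, adjusted p = 0.466). The related adaptor Fcer1g was the abundant member, at 3172 ± 824 CPM with IGF-1 and 2347 ± 307 CPM in controls (0.43, SE 0.18, adjusted p = 0.376). The pre-TCR alpha chain Ptcra had 7 counts in IGF-1 replicate 3 and 7 in control replicate 3. Of this list of 6 genes, 5 were tested and 0 were called, with a median of 0.43.

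Genes of recombination were split. Rag1 and Rag2, the recombinase, had 1 count each in the IGF-1 libraries, against 3 and 1 in the control libraries, and the terminal transferase Dntt had 1 count, in a control library. The end-joining factors were expressed, for example Xrcc5 at 38.9 ± 1.40 CPM with IGF-1 and 31.5 ± 6.42 CPM in controls (log2 fold change 0.30, SE 0.18, adjusted p = 0.549). Of the 16 listed genes 13 were tested and 0 were called (median -0.03). The chromatin protein Hmgb2 had the smallest p, with 105 ± 4.15 CPM with IGF-1 and 158 ± 11.2 CPM in controls (log2 fold change -0.58, SE 0.12, adjusted p = 0.0719), and Hmgb1 was the most abundant at 469 ± 46.7 CPM with IGF-1 and 483 ± 40.4 CPM in controls.

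Levels of the proximal signalling kinases and adaptors of the receptor ranged widely, and the kinase Syk was low, at 0.885 ± 0.266 CPM with IGF-1 and 0.880 ± 0.181 CPM in controls. Of 22 listed genes 20 were tested and 0 were called (median 0.01). An unadjusted p under 0.05 was found for 5 of the 20, beside 11.8% of all genes. The Src kinase Lck had 204, 212 and 224 CPM in the IGF-1 libraries, against 167, 149 and 127 CPM in the control libraries, with no overlap (log2 fold change 0.53, SE 0.13, adjusted p = 0.137). The adaptor Grap2 averaged 103 ± 9.98 CPM with IGF-1 and 148 ± 20.2 CPM in controls (-0.52, SE 0.14, adjusted p = 0.170). The TEC kinase Txk (404 ± 18.2 CPM with IGF-1, 406 ± 9.62 CPM in controls) and the exchange factor Rasgrp1 (351 ± 7.46 CPM with IGF-1, 429 ± 51.0 CPM in controls) were the most abundant. Of the co-receptors and surface partners 7 of 15 were tested and 0 were called (median -0.20). The adaptor Sit1 had the smallest p there, at 12.7 ± 1.29 CPM with IGF-1 and 4.30 ± 2.47 CPM in controls (1.56, SE 0.38, adjusted p = 0.133), then Cd4, a co-receptor that some ILC3s carry, at 23.1 ± 4.23 CPM with IGF-1 and 33.3 ± 2.73 CPM in controls (-0.52, SE 0.18, adjusted p = 0.286). Ptprc (430 ± 26.2 CPM with IGF-1, 391 ± 26.2 CPM in controls) and Icos (373 ± 31.4 CPM with IGF-1, 423 ± 14.8 CPM in controls) were the most abundant.

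Among 22 regulators known to act at receptor loci, 21 were tested, with a median log2 fold change of -0.07. Tcf7, which encodes TCF-1, averaged 184 ± 9.05 CPM with IGF-1 and 264 ± 16.9 CPM in controls (log2 fold change -0.52, SE 0.11, adjusted p = 0.0945). Id2 (2515 ± 233 CPM with IGF-1, 1931 ± 88.5 CPM in controls) and Rora (734 ± 109 CPM with IGF-1, 830 ± 152 CPM in controls) were the most abundant. Il7r, whose signal through STAT5 opens the gamma locus in mouse lymphocyte progenitors, averaged 417 ± 48.7 CPM with IGF-1 and 458 ± 21.5 CPM in controls (-0.13, SE 0.12, adjusted p = 0.740). Stat5a averaged 33.9 ± 4.75 CPM with IGF-1 and 52.5 ± 13.5 CPM in controls (-0.63, SE 0.20, adjusted p = 0.229). For Stat5b the means were 69.8 ± 3.26 CPM with IGF-1 and 79.3 ± 13.9 CPM in controls (-0.18, SE 0.15, adjusted p = 0.698).

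Markers of T cells were given beside these rows because T cells or γδ T cells in the sort would add segment reads. The 15 T-cell markers summed to between 39.9 and 52.7 CPM in the IGF-1 libraries and to between 50.3 and 58.5 CPM in the control libraries, with Cd4 and then Cd3g the most abundant, and 0 of the 7 tested were called. Cd28 had 87, 64 and 34 counts with IGF-1 and 119, 37 and 233 in controls (log2 fold change -1.11, SE 0.67). Foxp3 had 6, 43 and 12 counts with IGF-1 and 77, 61 and 35 in controls (-1.50, SE 0.89). Themis had 3, 30 and 1 counts with IGF-1 and 1, 20 and 0 in controls. Cd6 had 1 count over all libraries, Cd40lg 7 and Cd8b1 31, of which 25 were in control replicate 3. Of the γδ T-cell markers, 6 of 8 were in the table, and they summed to between 680 and 956 CPM with IGF-1 and to between 569 and 754 CPM in controls, almost all of it Maf, which ILC3s also express. Of these markers 5 were tested and 0 were called. Their log2 fold change was positive for 4 and negative for 1, with a median of 0.56, beside -0.01 for all genes tested. The γδ factor Sox13 had 10, 4 and 0 counts with IGF-1 and 3, 10 and 15 in controls, and the kinase Blk averaged 5.43 ± 2.04 CPM with IGF-1 and 2.92 ± 0.618 CPM in controls (log2 fold change 0.89, SE 0.41, adjusted p = 0.439). The part of T cells in the segment counts was not tested.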

How the data were processed

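The authors deposited 1 table of raw counts, with a row per gene symbol and a column per library. The submitters' processing notes name featureCounts 1.5.3, HISAT2 2.2.1, fastp 0.23.2, SAMtools 1.15.1 and the build GRCm39, with no role or order. Per the labels' protocols, libraries were made with the SMART-Seq HT kit, which does not mark strand. How multi-mapped reads were handled, which annotation was used and whether counting used strand is not stated in those notes or the labels. Libraries were grouped by title.

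Of 33157 rows, 13483 passed edgeR's filterByExpr (minimum count 10, minimum total 15), which removed 0.0806% of counts. The comparison of the groups used edgeR 4.0.16 under R 4.3.3 (TMM, quasi-likelihood test, group as the only term, Benjamini-Hochberg over all genes tested, threshold 0.05). SE is the log2 fold change divided by the root of F. The test was also run on simulated counts, with changes placed only in genes of at least 10 CPM. Most tested members lay below that level, so this run cannot tell how readily a change in them would be called. Replicates of a group differed by far more than sampling noise (chi-square per degree of freedom 37.0 to 82.8). With 3 libraries against 3 an exact permutation test cannot go below p = 0.1, so none was run. Alternatives used DESeq2 1.42.0, limma 3.58.1, other scalings and filters, a replicate block and leaving out each library.

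Segment sequences were read by name from GENCODE M21 (GRCm38), a build other than that of the counts, so no coordinates are given. All 244 members matched, gamma rows partly by older symbols. Per-kilobase values use the longest M21 transcript.

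Named genes were the constant rows, all members past the filter, the 3 with most counts in each locus and kind, and, of each pathway list, called genes, the 2 most abundant and the 2 with the smallest p. Traj58 to Traj61 as a set, Trgv2, Trbv31, Il7r, Stat5a, Stat5b, Blk, Sox13, Cd28, Foxp3, Themis, Muc2 and Lgals4 were added with their values in view. The result of 1 gene that the rule selects is not reported here. The members and lists were chosen with earlier results of these data known.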

Additional observations from a re-analysis of the deposited data

How the results depend on the processing

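The count of members called higher was 1, and it was 0 at an adjusted p under 0.01 and between 0 and 1 when 1 library was left out. The count called lower was 0 under every setting run. Trdv4 kept its direction in all 15 alternatives and its call in 10, with log2 fold changes from 0.90 to 1.10 without 1 library. None of the other 21 tested members was called in any alternative, and 9 of them changed sign when 1 library was left out. Their log2 fold changes then ran from -0.02 to 3.89 for Traj58, -0.62 to 0.15 for Trbd1, -0.33 to 0.01 for Trbj1-1, -0.24 to 0.04 for Trbj1-3, -0.29 to 0.09 for Trbj2-1, -0.27 to 0.13 for Trdv2-2, -0.11 to 0.24 for Trgv1, -0.22 to 0.04 for Trgv5 and -0.50 to 2.54 for Trgv7. Outside the rule they ran from -0.02 to 0.12 for Trgc1 and from -0.46 to 0.96 for Trgc2. The cause of these changes was not tested. Trgc4, outside the rule, had an adjusted p of 0.0277 with DESeq2 (log2 fold change 0.51), 0.00916 with DESeq2 and the replicate block (0.50) and 0.0274 with no filter (0.51), and from 0.104 to 0.600 without 1 library. The labels do not state whether equal replicate numbers mark paired libraries. Over all tested genes, deviations from the group means correlated at -0.0518, 0.00312 and 0.0642 for numbers 1, 2 and 3. Such values cannot decide the pairing, because single rows may still follow the number. With the replicate block in the edgeR fit, the count called higher was 0 and Trdv4 had a log2 fold change of 0.99 (adjusted p = 0.0775). With the block in DESeq2, Trdv4 stayed called (adjusted p = 6.96e-06).

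Without their most abundant row, the log2 ratios of summed CPM were 0.45 for Trgj (-0.09 with it), 0.07 for Trdv (0.98 with it), -0.01 for Trav (-0.87 with it), 0.15 for all members (-0.06 with it) and 0.51 for Trgc (0.23 with it). Over the fits without 1 library the Trav ratio ran from -1.66 to -0.59. Rows with at least 5 counts numbered 31, 30 and 27 in the IGF-1 libraries and 28, 35 and 26 in the control libraries, and rows with at least 10 counts 21, 23 and 22 with IGF-1 and 22, 22 and 19 in controls. In alternatives added after seeing the data, log2 ratios of summed markers were -0.12 without Cxcr6 and Id2 for ILC3s (0.21 with them), 0.02 without Ncr1 for NK cells and ILC1s (0.55 with it), -0.25 without Epcam for epithelial cells (-0.92 with it) and -0.06 without Id2 for the regulators (0.12 with it). The 100 members with counts below the filter shared 785 counts and were not tested.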

Other observations

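Markers of other cells were measured in the same libraries. Of the 10 markers of NK cells and ILC1s, 8 were tested and 1 was called higher, beside 0.230% of all genes: Ncr1, an activating receptor that some ILC3s also carry, with 71.5 ± 6.62 CPM with IGF-1 and 28.2 ± 1.09 CPM in controls (SD, n = 3 each, log2 fold change 1.34, SE 0.14, adjusted p = 0.00903, edgeR). Of the 10 epithelial markers, 6 were tested and 1 was called lower, beside 0.267% of all genes: Epcam, with 17.6 ± 3.28 CPM with IGF-1 and 38.6 ± 6.97 CPM in controls (-1.13, SE 0.20, adjusted p = 0.0442). Of the 6 tested, 5 had a negative log2 fold change. Among these, Lgals4 averaged 4.69 ± 0.316 CPM with IGF-1 and 6.58 ± 0.388 CPM in controls (-0.49, SE 0.30, adjusted p = 0.578). The 1 positive gene, the mucin Muc2, averaged 1.39 ± 0.428 CPM with IGF-1 and 0.319 ± 0.301 CPM in controls (2.12, SE 0.94, adjusted p = 0.413). The 8 ILC2 markers summed to 77.5 to 103 CPM with IGF-1 and 98.4 to 110 CPM in controls, and the 10 myeloid markers to 36.7 to 40.1 CPM with IGF-1 and 31.7 to 51.8 CPM in controls. The 13 B and plasma cell markers summed to 51.8 to 63.8 CPM with IGF-1 and 35.6 to 590 CPM in controls, the highest in control replicate 3. None of the ILC2, myeloid or B and plasma cell markers was called.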
